A study of Saccharomyces cerevisiae with 4 samples.

Results

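The genes described here build the DNA replication machinery of budding yeast: the origin recognition complex (ORC), the factors that load the replicative helicase, the helicase itself, the proteins that switch it on, and the polymerases, clamp and clamp loader that copy DNA at the fork. They were taken as the rows of both deposited tables whose name is 1 of 44 listed genes. All 44 were found among 6682 rows, and all 44 passed the filter on low values, a mean of at least 1 TPM. TPM is a level per unit of coding length, scaled within each library. In all, 5783 genes were tested. By role they fall into 14 licensing genes, 11 firing genes and 19 fork genes.

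RNA was sequenced from SK1, a strain background of Saccharomyces cerevisiae that enters meiosis readily, after 4 h in sporulation medium. The 2 strains were ndt80pch2 (ndt80Δpch2Δ), with 2 samples, and ndt80 (ndt80Δ), with 2 samples; the strain was read from the sample titles, since a further label names only ndt80Δ for all 4 samples. Both strains thus lack NDT80, the transcription factor for exit from meiotic prophase, so that neither can pass normally into the meiotic divisions. Whether samples of a strain were grown as separate cultures is not said, and the p-values below then speak of the spread among these 4 libraries alone, part or all of which may be technical. The series title asks about Pch2 and Orc1 at chromatin: Pch2 is a hexameric AAA+ ATPase of meiotic prophase, and the AAA+ protein Orc1 is its binding partner.

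In every cell cycle ORC marks origins, and Cdc6 and Cdt1 (encoded by TAH11) help it to load the MCM2-7 helicase as an inactive double ring, which is called licensing. The Dbf4-dependent kinase and the S-phase cyclin-dependent kinase then bring Cdc45 and the GINS complex to the ring, which is called firing, and the active helicase moves with the polymerases at the fork. Before meiosis the same machinery copies the genome once, in premeiotic S phase, ahead of the prophase in which NDT80 mutants stop. Many of its genes are transcribed at the G1/S transition by MBF, the Mbp1-Swi6 factor, which binds the MluI cell cycle box (MCB).

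The deposited tables hold 1 value per gene and strain. For 6645 of 6664 nuclear genes the values could be solved into whole reads of 2 libraries per strain. The libraries are called C and D for ndt80pch2 and A and B for ndt80, because the values do not show which library is which replicate. Recovered reads over nuclear genes numbered 1715306 in C and 1716241 in D, against 2148705 in A and 2379190 in B. PCH2 had 0 reads in both ndt80pch2 libraries, against 710 and 776 reads in the ndt80 libraries, and was at least 188-fold lower against a floor of 3 reads per library; NDT80 had 0 reads in each of C, D, A and B, a level of at most 1.16 TPM at that floor. On log2(TPM + 1) the libraries correlated across tested genes, which are not independent replicates, with a Pearson r of 0.964 for C and D, 0.978 for A and B, and 0.964 to 0.967 for libraries of different strains. Meiotic prophase markers, a list that holds REC8 and HOP1, summed to 4686 and 5400 TPM in ndt80pch2, against 4720 and 5104 TPM in ndt80, and 8 of its 10 members lay above the median fold change of all genes. Markers of cells that mate summed to 46.9 and 51.7 TPM in ndt80pch2, against 69.6 and 69.5 TPM in ndt80; all 6 tested of 9 lay below that median, and no library held a read of the short genes MFA1 and MFA2, for which the floor is as high as 19.8 and 18.7 TPM. The part of these markers in the results below was not tested.

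The 3 roles differed in the sequence before the start codon. The MCB, whose letters are ACGCGT and read the same on both strands, was searched in the 250 bases before each annotated start codon. It stood before 14 of 19 fork genes (73.7%), 4 of 11 firing genes (36.4%) and 1 of 14 licensing genes (7.14%), against 174 of 6007 genes (2.9%) in the whole annotation. A second motif, the core GGCGGC (or GCCGCC on the other strand) of URS1, the site through which Ume6 holds early meiotic genes off in growing cells, was added after the data were seen. It stood before 4 of the 44 genes, ORC1, MCM4, MCM5 and POL31, against 251 of 6007 genes (4.18%). No match overlapped an annotated gene. A match is only a match of letters, and the genome is the R64 reference, which is not SK1.

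The following sites are shown because they cover each role: the lone licensing gene with an MCB, both sites of CDC45, catalytic polymerase subunits, the clamp, the clamp loader and CTF4, and then the ORC1 site. Each is printed 5′ to 3′ on the strand of its gene, with the motif in capitals.
CDC6: acgcgaggcctcACGCGTcggagtttccag
CDC45, far site: gtttcattcacgACGCGTatttttttttca
CDC45, near site: acatatcatctaACGCGTtttaagaaattt
POL1, far site: acatctattcaaACGCGTtaaaattttttt
POL1, near site: cctataagtaaaACGCGTcgcgtgtatcca
POL2: agggtaaccagaACGCGTaagtttcttgca
POL3: atttttcgtattACGCGTaactttttattc
POL30: ccaaaacgcgaaACGCGTaacttttttttt
RFC4: ctgttagattaaACGCGTtttttcttgaca
CTF4: ctgtttaacgcgACGCGTaataaagtttcc
ORC1, URS1 core: gaaaactgcataGGCGGCaaattcagccta

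The CDC6 window lies at chrX:69122-69151 on the plus strand, with 198 bases between the motif and the start codon. The POL1 windows lie at chrXIV:429867-429896 and chrXIV:429902-429931 on the plus strand, with 202 and 167 bases to the start codon. The POL30 window lies at chrII:425944-425973 on the minus strand, with 189 bases to the start codon. The CTF4 window lies at chrXVI:799099-799128 on the plus strand, with 117 bases to the start codon. The ORC1 window lies at chrXIII:142107-142136 on the plus strand, with 85 bases to the start codon. Besides CDC45 and POL1, MCB pairs stood before POL12, TOF1 and MRC1.

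**Figure D1:**
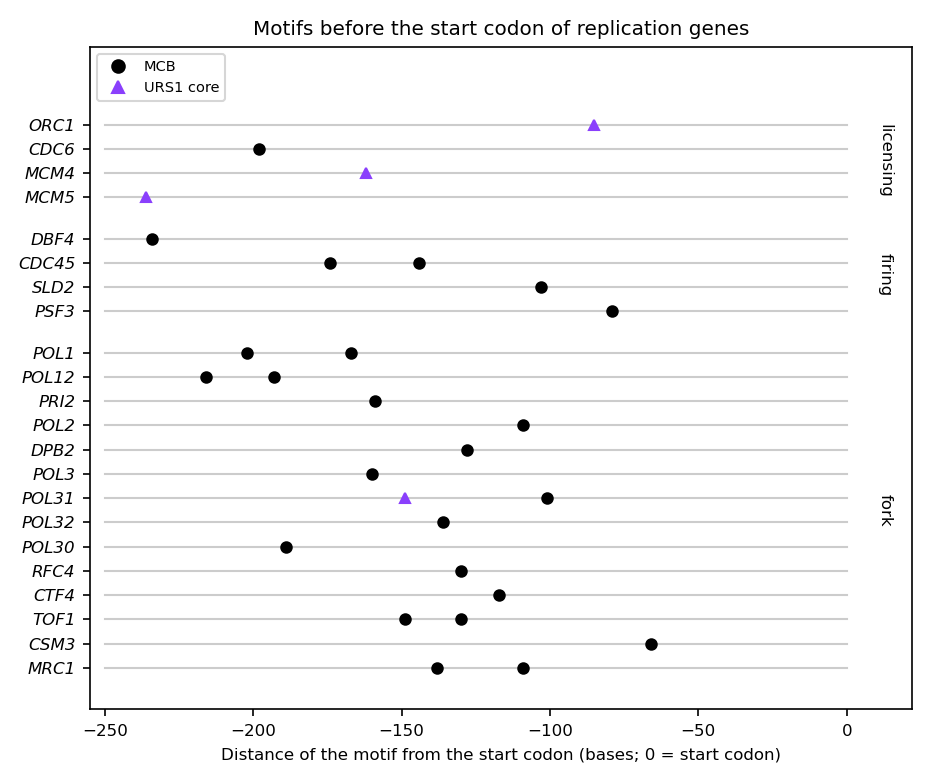
Position of each MCB (circles) and URS1 core (triangles) in the 250 bases before the start codon (0 on the horizontal axis), for the 22 replication genes with at least 1 of them, by role. Circles stand before 14 of 19 fork genes and 1 of 14 licensing genes.

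Relative to ndt80 cells, ndt80pch2 cells had a lower mean log2(TPM + 1) for 39 of the 44 genes (88.6%), against 73.8% of all genes. No replication gene passed the test. Over all tested genes 1 was called, PCH2 itself (0.0173%; limma-trend, Benjamini-Hochberg adjusted p = 1.15e-04), so the absence of a call among 44 genes is near the background. Their smallest adjusted p was 0.248 (limma-trend), for RFC2. With limma-voom on the recovered reads 26 genes were called (0.45%), again with none of the 44, and RFC2 had the smallest adjusted p, 0.083. At an unadjusted limma-trend p under 0.05 there were 8 of the 44 genes, all lower in ndt80pch2 (18.2%), against 758 of all genes (13.1%); higher at that p were 0 of the 44, against 156 of all genes (2.7%). With median-of-ratios factors in place of TPM scaling, 2 of the 44 genes, RFC2 and CTF4, were at such a p, both lower (4.55%), against 216 of all genes lower (3.73%), 379 higher (6.55%) and 595 in either direction (10.3%). With 2 libraries per strain the differences below are descriptions unless a test is named.

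Both ndt80pch2 libraries lay below both ndt80 libraries for 28 of the 44 genes (63.6%), against 42.4% of all genes, and above both for 0, against 9.41%. TPM levels as a whole were shifted: the log2 fold change, ndt80pch2 over ndt80 on log2(TPM + 1), was below 0 for 73.8% of all genes and had a median of -0.15. Scaling the reads with median-of-ratios factors, which moved that median to -0.0049, left 16 of the 44 genes lower without overlap (36.4%), against 21.6% of all genes, and 4 higher (9.09%), against 22.4%. Relative log2 fold changes below have the median of all genes subtracted; each p-value, SE and interval is that of the change before the subtraction. On that relative scale the 44 genes had a median of -0.12, with 30 below and 14 above the median of all genes. Their summed level was 2310 and 2222 TPM in ndt80pch2, against 2598 and 2605 TPM in ndt80. In bulk samples, fewer cells of a type and less RNA per cell cannot be told apart.

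By role, the relative median was -0.10 for licensing genes, -0.22 for firing genes and -0.13 for fork genes. In TPM 9 of 14, 7 of 11 and 12 of 19 were lower without overlap, against 42.4% of all genes. After median-of-ratios scaling 4 of 14, 3 of 11 and 9 of 19 were so, against 21.6% of all genes. An unadjusted limma-trend p under 0.05 was seen for 1 licensing, 1 firing and 6 fork genes, all lower, against 13.1% of all genes lower. No test of the difference between roles was made. The relative median of firing genes moved most when a library was left out, between -0.24 and -0.07. Firing genes rest on fewer reads, with a median of 41.2 reads per gene and library, against 178 for licensing and 82.2 for fork genes.

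**Figure D2:**
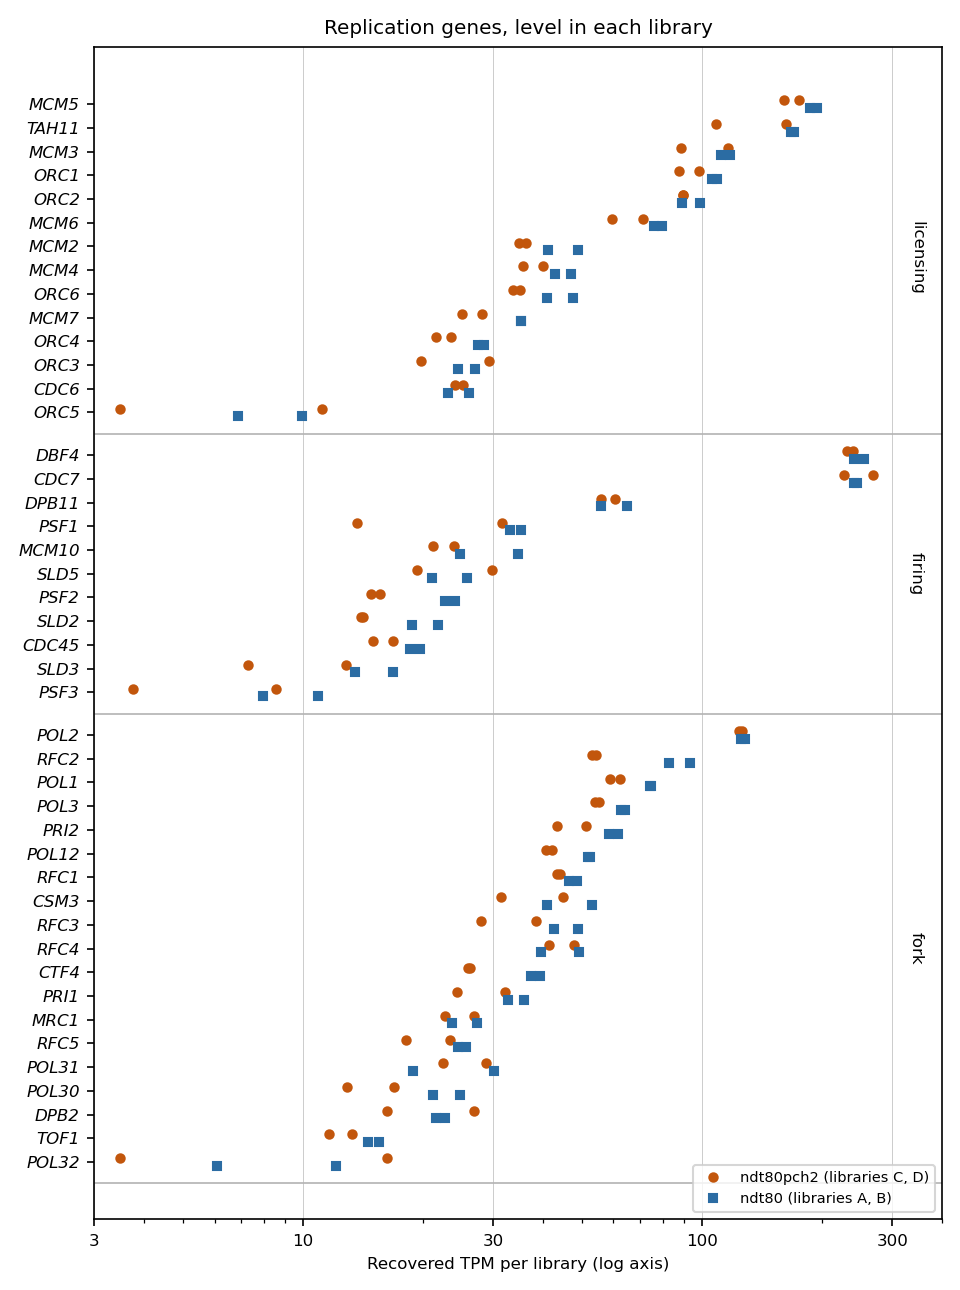
Recovered TPM (log axis) of the 44 replication genes in the ndt80pch2 libraries C and D (circles) and the ndt80 libraries A and B (squares), by role and ordered by level in ndt80. The circles lie farthest apart for POL32, ORC5, PSF1 and PSF3, while CDC7 and DBF4 lie highest in all 4 libraries.

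Among licensing genes, ORC1 encodes the largest ORC subunit, an AAA+ ATPase, and lies at chrXIII:142210-144954 on the plus strand. It had 98.3 and 87.6 TPM in ndt80pch2, against 106 and 109 TPM in ndt80, from 378 and 329 reads against 501 and 562 reads. Both ndt80pch2 libraries lay below both ndt80 libraries in TPM, and the libraries overlapped after median-of-ratios scaling. The log2 fold change was -0.21 (SE 0.11, 95% interval -0.47 to 0.05) before the subtraction and -0.06 relative to all genes, with an adjusted p of 0.367 (limma-trend). Without library D the relative value was 0.0020, so 1 library set its direction. As far as the spread among these 4 libraries goes, the interval leaves out a fall of ORC1 by more than 0.47 on the log2 scale before the subtraction. It does not bound a difference between separate cultures.

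The subunits of ORC, which form 1 complex, had unequal levels per length. ORC2 had 89.6 and 89.5 TPM in ndt80pch2, against 98.9 and 89.3 TPM in ndt80. ORC6, the subunit unrelated to the AAA+ family, had 34.9 and 33.5 TPM in ndt80pch2, against 40.9 and 47.5 TPM in ndt80. ORC4 had 21.5 and 23.4 TPM in ndt80pch2, against 27.4 and 28.4 TPM in ndt80. ORC4 and ORC6 were thus lower without overlap in TPM, as ORC1 was, against 42.4% of all genes, while ORC2 overlapped. After median-of-ratios scaling ORC4 and ORC6 stayed lower without overlap, against 21.6% of all genes. ORC3 had 29.3 and 19.7 TPM in ndt80pch2, against 27.0 and 24.4 TPM in ndt80. ORC5 had 3.47 and 11.2 TPM in ndt80pch2, against 6.86 and 9.97 TPM in ndt80, from 7, 22, 17 and 27 reads in C, D, A and B. For ORC3 and ORC5 the ndt80pch2 libraries enclosed the ndt80 libraries. From the highest to the lowest subunit, ORC1 to ORC5, the mean level differed 12.7-fold in ndt80pch2 and 12.8-fold in ndt80. Neighbours in this order were not all distinct, since ORC1 and ORC2 overlapped in ndt80pch2, as did ORC3 and ORC4.

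The helicase loaders had relative values of opposite sign. CDC6, the AAA+ loader and the lone licensing gene with an MCB, had 24.1 and 25.1 TPM in ndt80pch2, against 26.0 and 23.1 TPM in ndt80. TAH11, the yeast Cdt1, had 163 and 109 TPM in ndt80pch2, against 170.4 and 167 TPM in ndt80. The CDC6 libraries overlapped in TPM and were higher in ndt80pch2 without overlap after median-of-ratios scaling; the relative value, 0.15, was the largest of the licensing genes. For TAH11 library D alone stood low, and the relative value of -0.19 was 0.08 without it.

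All 6 helicase genes MCM2 to MCM7 lay below the median of all genes, and 5, all but MCM3, were lower without overlap, against 42.4% of all genes. After median-of-ratios scaling this held for 2, MCM2 and MCM7, against 21.6% of all genes. MCM2 had 34.8 and 36.2 TPM in ndt80pch2, against 41.0 and 48.9 TPM in ndt80. MCM7 had 28.1 and 25.1 TPM in ndt80pch2, against 35.3 and 35.2 TPM in ndt80, a log2 fold change of -0.40 (SE 0.16, unadjusted p = 0.0498, adjusted p = 0.316, limma-trend). These were the most negative of the 6 helicase genes. MCM3 had 116 and 88.5 TPM in ndt80pch2, against 118 and 112 TPM in ndt80. MCM4 had 35.7 and 39.9 TPM in ndt80pch2, against 42.7 and 46.9 TPM in ndt80. MCM5 had 161 and 175 TPM in ndt80pch2, against 187 and 195 TPM in ndt80. MCM5 was the highest licensing gene, and its relative value was -0.04. MCM6 had 71.3 and 59.6 TPM in ndt80pch2, against 76.0 and 79.5 TPM in ndt80. The proteins assemble in equal numbers, and the mean level of their transcripts differed 6.32-fold in ndt80pch2 and 5.42-fold in ndt80, with MCM5 highest and MCM7 lowest in both strains. Summed over the 6 genes the level was 447 and 424 TPM in ndt80pch2, against 500.0 and 517 TPM in ndt80.

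Among firing genes, both parts of the Dbf4-dependent kinase stood far above the rest, with small differences between strains. CDC7, the catalytic subunit, had 228 and 269 TPM in ndt80pch2, against 245 and 241 TPM in ndt80. DBF4, its activator, had 239 and 231 TPM in ndt80pch2, against 255 and 241.01 TPM in ndt80. The CDC7 libraries overlapped; those of DBF4 were lower without overlap in TPM by a small margin and higher without overlap, as were those of CDC7, after median-of-ratios scaling. The 2 mean levels were within 1.06-fold of each other in ndt80pch2 and 1.02-fold in ndt80. Both exceeded the means of the remaining 42 of the 44 genes in both strains.

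CDC45, SLD2, SLD3 and MCM10 had mean levels in ndt80 below the median of all tested genes, 57.6 TPM, and DPB11 lay near it. CDC45 had 16.8 and 15.0 TPM in ndt80pch2, against 19.6 and 18.5 TPM in ndt80. SLD2 had 14.1 and 14.0 TPM in ndt80pch2, against 18.8 and 21.9 TPM in ndt80. SLD3 had 12.8 and 7.28 TPM in ndt80pch2, against 16.8 and 13.5 TPM in ndt80. Sld2 and Sld3 are the cyclin-dependent kinase targets of firing. Both of their genes were lower without overlap in TPM, as was CDC45, against 42.4% of all genes. After median-of-ratios scaling this held for SLD2 and CDC45, against 21.6% of all genes, and SLD3 overlapped. DPB11, whose protein bridges phosphorylated Sld2 and Sld3, had 56.0 and 60.5 TPM in ndt80pch2, against 55.99 and 64.8 TPM in ndt80. MCM10 had 21.2 and 23.9 TPM in ndt80pch2, against 34.6 and 24.8 TPM in ndt80. DPB11 overlapped between strains. MCM10 was lower without overlap in TPM and overlapped after median-of-ratios scaling, and its relative value of -0.22 was 0.01 without library A.

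GINS, a complex of 4 small proteins in equal numbers, had a median of 24.6 reads per gene and library. PSF2 had 15.6 and 14.8 TPM in ndt80pch2, against 22.6 and 24.0 TPM in ndt80, a log2 fold change of -0.59 (SE 0.20, unadjusted p = 0.025, adjusted p = 0.288, limma-trend). PSF1 had 13.7 and 31.5 TPM in ndt80pch2, against 35.2 and 33.1 TPM in ndt80. Both, 2 of the 4 GINS genes, were lower without overlap in TPM, against 42.4% of all genes. PSF2 had 14 and 13 reads against 25 and 29, but library D brought PSF1 close to ndt80. After median-of-ratios scaling PSF2 stayed lower without overlap, against 21.6% of all genes, and PSF1 overlapped. PSF3 had 8.54 and 3.75 TPM in ndt80pch2, against 7.95 and 10.9 TPM in ndt80, from 7 and 3 reads against 8 and 12 reads. SLD5 had 19.4 and 29.7 TPM in ndt80pch2, against 21.0 and 25.8 TPM in ndt80. PSF3 and SLD5 overlapped, and SLD5 had the largest relative value of the firing genes, 0.19. The relative values of PSF1, PSF3 and SLD5 each changed sign when 1 ndt80pch2 library was left out.

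**Figure D3:**
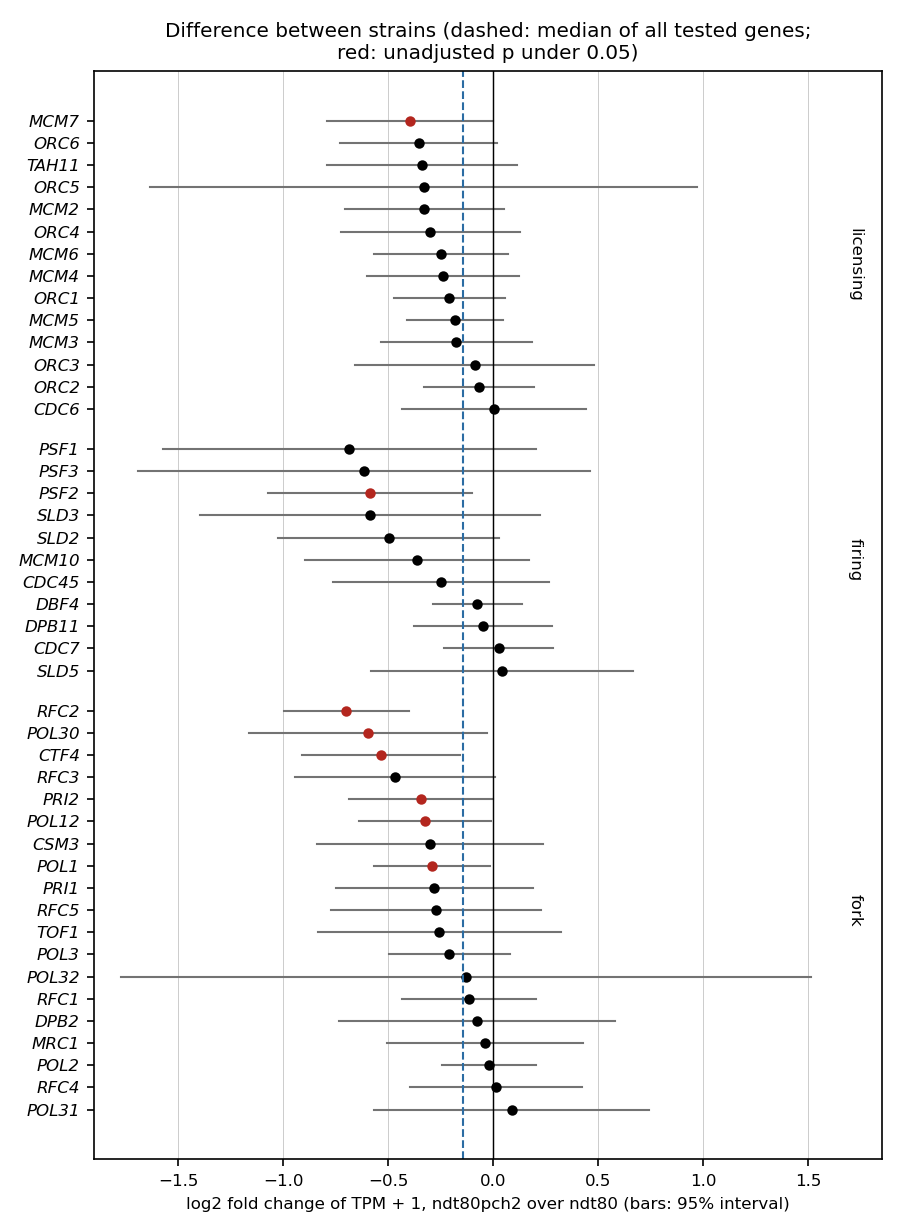
Log2 fold change of TPM + 1, ndt80pch2 over ndt80, with its 95% interval from limma-trend for each replication gene, by role; the dashed line is the median of all tested genes (-0.15). The 8 red points have an unadjusted p under 0.05, all of them left of the dashed line, and none passes adjustment over all genes.

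At the fork, polymerase alpha-primase, which lays down the RNA-DNA primer of each Okazaki fragment, was lower without overlap in all 4 subunits, against 42.4% of all genes. POL1, the catalytic subunit, had 62.2 and 58.7 TPM in ndt80pch2, against 74.4 and 74.2 TPM in ndt80, a log2 fold change of -0.29 (SE 0.11, unadjusted p = 0.041, adjusted p = 0.304, limma-trend). POL12, the B subunit, had 42.1 and 40.7 TPM in ndt80pch2, against 52.4 and 51.9 TPM in ndt80 (unadjusted p = 0.045, adjusted p = 0.309, limma-trend). PRI2, the large primase subunit, had 51.3 and 43.3 TPM in ndt80pch2, against 61.6 and 58.6 TPM in ndt80 (unadjusted p = 0.049, adjusted p = 0.315, limma-trend). These 3 genes hold the MCB. PRI1, the catalytic primase subunit, had 24.4 and 32.1 TPM in ndt80pch2, against 32.6 and 35.9 TPM in ndt80, and held none. Summed over the complex the level was 179.95 and 175 TPM in ndt80pch2, against 221 and 220.6 TPM in ndt80. After median-of-ratios scaling 3 of the 4 were lower without overlap, against 21.6% of all genes, and PRI1 overlapped.

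Both genes of polymerase epsilon, the leading-strand enzyme, overlapped between strains in TPM, and after median-of-ratios scaling POL2 was higher in ndt80pch2 without overlap. POL2, its catalytic subunit, had 124 and 126 TPM in ndt80pch2, against 125.6 and 128 TPM in ndt80, from 1153 to 1610 reads per library. DPB2, its essential second subunit, had 26.9 and 16.2 TPM in ndt80pch2, against 22.8 and 21.6 TPM in ndt80. POL2 was the most deeply read of the 44 genes, and its log2 fold change was -0.02 (95% interval -0.25 to 0.20, limma-trend). Its relative value of 0.13 stayed above 0 in all 10 alternatives. Levels of the 2 subunits differed 5.80-fold in ndt80pch2 and 5.73-fold in ndt80. Both promoters hold an MCB, as those of POL1, POL12 and PRI2 do.

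Polymerase delta and its clamp, which extend the Okazaki fragments, were mixed. POL3, the catalytic subunit, had 54.0 and 55.3 TPM in ndt80pch2, against 64.1 and 62.6 TPM in ndt80. POL31, the second essential subunit, had 28.8 and 22.5 TPM in ndt80pch2, against 30.2 and 18.9 TPM in ndt80. POL32, the nonessential subunit, had 16.3 and 3.47 TPM in ndt80pch2, against 6.07 and 12.1 TPM in ndt80, from 24, 5, 11 and 24 reads in C, D, A and B. POL3 was lower without overlap in TPM, against 42.4% of all genes, and after median-of-ratios scaling, against 21.6%. POL31 and POL32 overlapped in both readings. C exceeded D for POL32 by 4.69-fold, the widest gap between libraries of a strain among the 44 genes. POL30, which encodes the sliding clamp PCNA, had 12.9 and 16.9 TPM in ndt80pch2, against 24.7 and 21.2 TPM in ndt80. Its log2 fold change was -0.60 (SE 0.23, unadjusted p = 0.041, adjusted p = 0.304, limma-trend), from 14 and 18 reads against 33 and 31 reads. POL30 was also lower without overlap in both readings, against the same shares of all genes.

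Replication factor C, the clamp loader of 5 subunits, held the gene with the largest difference. RFC2, at chrX:567643-568704 on the plus strand, had 53.1 and 54.4 TPM in ndt80pch2, against 93.6 and 82.6 TPM in ndt80, from 79 and 79 reads against 171 and 165 reads. The fold between mean levels was 0.610, the lowest of the 44 genes, and the log2 fold change was -0.70 (SE 0.12, 95% interval -0.997 to -0.40, unadjusted p = 0.0011, adjusted p = 0.248, limma-trend). Leaving out any library kept its relative value between -0.64 and -0.47. RFC3 had 38.4 and 27.9 TPM in ndt80pch2, against 42.6 and 48.8 TPM in ndt80. RFC5 had 18.1 and 23.3 TPM in ndt80pch2, against 25.7 and 24.5 TPM in ndt80. RFC1, the large subunit, had 43.3 and 44.1 TPM in ndt80pch2, against 46.5 and 48.5 TPM in ndt80. These 3, like RFC2, were lower without overlap in TPM, against 42.4% of all genes, although the relative value of RFC1 was above 0, at 0.03. After median-of-ratios scaling RFC2 and RFC3 stayed lower without overlap, against 21.6% of all genes, and RFC1 and RFC5 overlapped. RFC4 had 47.7 and 41.4 TPM in ndt80pch2, against 39.5 and 49.2 TPM in ndt80. RFC4 overlapped, and it was the single clamp loader gene with an MCB. The RFC2 mean was the highest of the 5 in both strains, and the RFC5 mean the lowest.

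Of the proteins that travel with the helicase, CTF4 had the largest difference. CTF4, which tethers polymerase alpha to the helicase and lies at chrXVI:799234-802017 on the plus strand, had 26.1 and 26.0 TPM in ndt80pch2, against 39.3 and 37.2 TPM in ndt80. Its log2 fold change was -0.54 (SE 0.16, 95% interval -0.91 to -0.16, unadjusted p = 0.013, adjusted p = 0.287, limma-trend), from 102 and 99 reads against 188 and 195 reads. Its relative value stayed between -0.42 and -0.35 when any library was left out. The checkpoint and fork-pausing genes lay closer to the rest. TOF1 had 13.2 and 11.6 TPM in ndt80pch2, against 15.5 and 14.6 TPM in ndt80. CSM3, whose protein binds Tof1, had 44.9 and 31.4 TPM in ndt80pch2, against 40.8 and 52.9 TPM in ndt80. MRC1, the mediator of the replication checkpoint, had 26.9 and 22.7 TPM in ndt80pch2, against 23.7 and 27.3 TPM in ndt80. CTF4 and TOF1 were lower without overlap in TPM, against 42.4% of all genes, and after median-of-ratios scaling, against 21.6%. CSM3 and MRC1 overlapped in both readings.

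The strain difference was then read by motif. The 19 genes that hold it had a median relative log2 fold change of -0.10, between -0.47 and 0.23, and the 25 without it had a median of -0.13, between -0.55 and 0.19. RFC2, with the largest difference, held no MCB in the 250 bases, and CTF4, with the next smallest unadjusted p, held 1. The 4 genes with the URS1 core had a median of -0.05. In level, genes with the MCB had a median of 25.6 TPM in ndt80pch2 and 25.5 TPM in ndt80. Those without it had 34.2 TPM in ndt80pch2 and 44.8 TPM in ndt80. The middle gene differs between strains (POL31 and MRC1 with the MCB, ORC6 and MCM4 without it). These medians of level therefore do not give a change between strains.

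The median gap between C and D on log2(TPM + 1) was 0.17 for the 44 genes, against 0.20 for all genes, and that between A and B was 0.11, against 0.13 for all genes. Between C and D 4 of the 44 genes, ORC5, PSF1, PSF3 and POL32, were at least 2-fold apart, and between A and B 0. For 6 genes at least 1 library had under 20 reads. Standard errors of the log2 fold change ran from 0.09 for DBF4 to 0.68 for POL32. At a median of 82.8 reads per gene and library, differences within the intervals of the individual genes were not detectable.

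**Figure D4:**
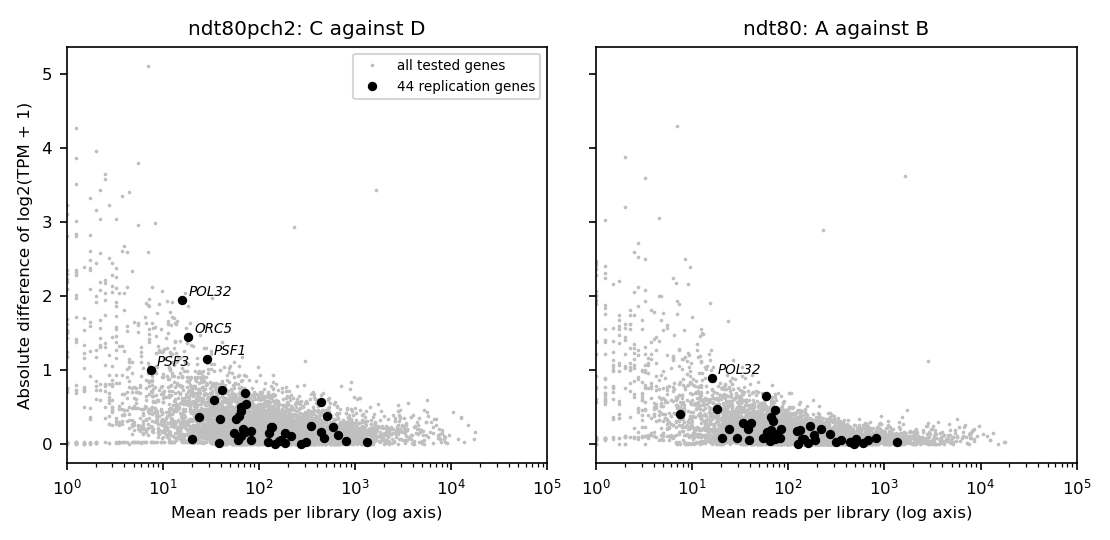
Absolute difference of log2(TPM + 1) between libraries of the same strain against mean reads per library (log axis), C against D on the left and A against B on the right, for all tested genes (grey) and the 44 replication genes (black). POL32, ORC5, PSF1 and PSF3 stand highest of the 44 on the left.

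The rest of the pathway was read from 46 genes outside the 44, of which 45 were tested. None was called by limma-trend, and their median relative log2 fold change was -0.05, with 23 below and 22 above the median of all genes. By group the relative medians were 0.09 for 10 other replisome and clamp loader genes, 0.04 for 9 genes of single-strand binding and lagging-strand maturation, 0.01 for 4 of the S-phase kinase, -0.14 for 5 of the G1/S factors MBF and SBF, 0.11 for 8 of deoxynucleotide supply, -0.14 for 6 of chromatin assembly and -0.05 for 3 of origin timing. With limma-voom 3 genes of deoxynucleotide supply rose, all subunits of ribonucleotide reductase, which makes the building blocks of DNA. RNR3, its alternative large subunit, had 29.3 and 30.8 TPM in ndt80pch2, against 15.4 and 16.5 TPM in ndt80 (adjusted p = 0.0201, limma-voom; 0.255, limma-trend). RNR2 had 364 and 386 TPM in ndt80pch2, against 247 and 239 TPM in ndt80 (adjusted p = 0.0091, limma-voom; 0.167, limma-trend). RNR4 had 554 and 542 TPM in ndt80pch2, against 352 and 339 TPM in ndt80 (adjusted p = 0.0056, limma-voom; 0.140, limma-trend). RNR1, the main large subunit, had 99.3 and 106 TPM in ndt80pch2, against 112 and 114 TPM in ndt80, and did not pass either test. Among the prophase markers DMC1, the meiotic recombinase, fell with limma-voom (adjusted p = 6.0e-04; 0.070 with limma-trend), at 231 and 252 TPM in ndt80pch2, against 476 and 491 TPM in ndt80.

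Read as printed, the authors' deposited columns give another picture of the same 44 genes, because, on the row order solved here, each printed ndt80 value of these genes averages the gene in 1 library with an unrelated gene in the other. In the columns as printed 14 of the 44 genes were at least 2-fold apart, near the 31.9% of all genes that were so in either direction. All 14 were lower in ndt80pch2, and the share of all genes lower by that much was not counted. In the recovered means 0 of the 44 were 2-fold apart, against 3.53% of all genes. For 13 of the 44 genes the direction differed between the 2 readings. POL32 was printed at 9.87 TPM for ndt80pch2, against 457 TPM for ndt80, while its recovered means were 9.87 TPM in ndt80pch2 and 9.09 TPM in ndt80. RFC1 was printed at 43.7 TPM for ndt80pch2, against 629 TPM for ndt80, while its recovered means were 43.7 TPM in ndt80pch2 and 47.5 TPM in ndt80. ORC1 was printed at 92.9 TPM for ndt80pch2, against 166 TPM for ndt80, a fold of 0.560, while the recovered means gave 0.865.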

How the data were processed

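Per the labels, mRNA of 4 samples, 2 for each of 2 strains, was sequenced as paired ends on an Illumina HiSeq instrument. The tools that the submitters' processing notes list, without order or role, are DESeq2 (2.11.40.6), HTSeq (0.9.1), HISAT2 (2.1.0) and FastQC, and the build is R64 (sacCer3); the sources used here do not say whether counting used strand. The authors deposited 1 unnamed column per strain, on a TPM-like scale inferred from the values.

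Multiplied by coding length, 99.98% of ndt80pch2 values above 0 were sums of whole multiples of 2 steps, within 0.55 of the last digit. All 90 ndt80 values above 0 before row 94, the first of 18 mitochondrial rows, were so too. After it 9.16% were, in printed order, against 99.9% when the second library was read from a list without mitochondrial rows. Whole reads were recovered in this way for 6645 of 6664 nuclear genes. Recovered TPM over nuclear genes did not sum to the same total: 905339 in C and 938699 in D, against 885481 in A and 931378 in B. Mitochondrial rows, read for A alone, summed to 30364 TPM. The solving was tested on simulated data, which cannot test this reading of the rows. All 44 members had coordinates as in the RefSeq R64 annotation.

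TPM per library was tested on log2(TPM + 1), a scale that understates the change of low genes, for genes with a mean of at least 1 TPM, with limma 3.58.1 (limma-trend, in R 4.3.3) with strain as the single factor, p-values adjusted by Benjamini-Hochberg over all 5783, with calls at an adjusted p under 0.05. The design foresaw TPM per sample; the unit of the columns was entered as other, since it is unnamed. Alternatives were median-of-ratios factors, a pseudocount of 0.1, no filter, a minimum of 10 TPM, limma-voom, nuclear genes rescaled to equal totals, and each library left out. Members, groups, other lists and the alternatives were chosen with earlier results of these data known. Values per library were given for every member, which covers the rule for named genes: all ORC and MCM genes, the highest, the lowest and the 3 most changed each way in each role, and those with an unadjusted p under 0.05. The floor for a count of 0 is 3 reads per library and covers counting error only.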

Additional observations from a re-analysis of the deposited data

How the results depend on the processing

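None of the 44 genes was called in any of the 10 alternatives, where the smallest adjusted p was 0.083. The number below the median of all genes, 30, ranged from 26 to 32, with 26 to 31 when 1 library was left out (26 without D). Over all genes the number called was 25 with no filter, 4 at a minimum of 10 TPM and 26 with limma-voom, and 0 to 1 when 1 library was left out (0 without A or without B, where PCH2 was no longer called); where a lone library stands for a strain, it is assumed to vary like the other strain. Among the other replication genes 3 were called with limma-voom. The median of the 44 genes lay between -0.161 and -0.072 when 1 library was left out, that of licensing genes between -0.150 and -0.048, of firing genes between -0.244 and -0.065 and of fork genes between -0.193 and -0.088. For firing genes it was -0.25 with no filter and -0.16 at a minimum of 10 TPM, where PSF3 was not tested; ORC5 and POL32 were not tested there either. Genes of the 44 at an unadjusted p under 0.05 numbered 8 (18.2%, against 15.8% of all genes). They numbered 2 with median-of-ratios factors (4.55%, against 10.3%), 4 with nuclear genes rescaled (9.09%, against 13.9%), 13 without C (29.5%, against 22.1%), 5 without D (11.4%, against 16.2%), 1 without A (2.27%, against 4.1%) and 1 without B (2.27%, against 4.61%).

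Of 437 alternative values of single genes, 406 kept their side of the median of all genes and 31 reversed; 24 genes kept it throughout, 18 below and 6 above. With 1 library left out, relative values ranged from -0.14 to 0.0020 for ORC1, -0.21 to 0.31 for ORC3, -0.93 to 0.54 for ORC5, -0.47 to 0.079 for TAH11, -0.22 to 0.15 for MCM3, -0.11 to 0.032 for MCM5, -0.22 to 0.0062 for MCM6, -0.45 to 0.011 for MCM10, -0.0088 to 0.21 for DPB11, -1.13 to 0.041 for PSF1, -0.97 to 0.016 for PSF3, -0.13 to 0.49 for SLD5, -0.34 to 0.065 for PRI1, -0.27 to 0.40 for DPB2, -0.088 to 0.56 for POL31, -0.95 to 0.97 for POL32, -0.0023 to 0.062 for RFC1, -0.32 to 0.056 for RFC5, -0.40 to 0.080 for CSM3 and -0.0052 to 0.21 for MRC1. POL32, at 0.015, was also reversed with median-of-ratios factors (-0.0010), a pseudocount of 0.1 (-0.033), no filter (-0.016) and limma-voom (-0.029), and RFC1 with no filter (-0.0014).

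No paired analysis was possible because the columns carry no replicate numbers. A planned quasi-likelihood count test was not run, because the deposited unit is no count. Protein features were not analysed here.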
